A study of Mus musculus with 8 samples.

Results

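Dentate granule cells, the principal neurons of the dentate gyrus, were followed through 9 marker genes in RNA-seq tables of mouse hippocampus: Prox1, Glis3, C1ql2, Npnt, Dsp, Stxbp6, Calb1, Tdo2 and Plk5. The genes were chosen by name as known markers, with earlier results of these data known. All 9 were found among the 55188 genes of each table. The tissue came from C57BL/6 mice before fear conditioning, 2 animals labelled KO (KO1 and KO2) and 2 labelled wild type (WT1 and WT2), with 2 technical replicate libraries per animal and 8 libraries in all. The design text gives the knockout as Pyk2, the product of Ptk2b and a tyrosine kinase that responds to calcium, and the labels call the animals of both groups transgenic without naming an allele, an age or a sex. The labels number the animals without saying whether every number stands for its own mouse. Each p-value rests on the spread between these numbered units, except in the alternative fit with the 8 libraries as units. The p-values of limma, the linear model test used here, also draw on the spread of the other genes tested. The study asked which transcripts differ between Pyk2-deficient and wild-type hippocampus at baseline.

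Granule cells receive the main cortical input of the hippocampus and pass it through their mossy fibre axons to CA3 pyramidal cells and hilar mossy cells. They are among the few neurons that continue to be born in the adult rodent brain, and the homeobox protein Prox1 specifies and maintains their identity. Because the RNA came from whole hippocampus, fewer granule cells and less marker RNA per granule cell cannot be told apart in these values. Several of the genes are also used by other cells of the region: Prox1 and Calb1 by interneurons, and Calb1 by superficial CA1 pyramidal cells.

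The levels are FPKM, fragments per kilobase of transcript scaled to the mapped fragments of the library, as the authors deposited them. Neither group lacked any of the markers. Every one of the 9 was above 0 in all 8 libraries and passed the minimum of 0.5 FPKM in at least 2 animals. Over the 4 animals, Calb1 (mean 39.7 FPKM) and C1ql2 (35.8 FPKM) stood highest, and their ranges overlapped. Stxbp6 followed at 20.9 FPKM and Prox1 at 15.9 FPKM, each range apart from those of its neighbours in the order. Plk5 (9.77 FPKM), Npnt (7.74 FPKM) and Dsp (6.91 FPKM) overlapped in their ranges. Tdo2 at 3.74 FPKM and Glis3 at 2.43 FPKM stood lowest, each apart from the gene above it.

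The promoter windows of 3 members are shown because they hold the largest difference between groups (Plk5), the most abundant member with an entry (C1ql2) and the window of lowest GC content (Tdo2). They come from RefSeq (build GRCm38.p6), run from 250 bases before to 50 bases after the annotated start, and are written 5′ to 3′ on the strand of the gene. Capitals mark a match to either of these motifs, searched on both strands. The first is the GC box, spelled GGGCGG, whose neighbouring matches may share letters. The other is the TATA box, spelled with the letters TATAAA. The windows are chr10:80356209-80356508 on the plus strand for Plk5, chr1:120340332-120340631 on the plus strand for C1ql2 and chr3:81975679-81975978 on the minus strand for Tdo2.
Plk5: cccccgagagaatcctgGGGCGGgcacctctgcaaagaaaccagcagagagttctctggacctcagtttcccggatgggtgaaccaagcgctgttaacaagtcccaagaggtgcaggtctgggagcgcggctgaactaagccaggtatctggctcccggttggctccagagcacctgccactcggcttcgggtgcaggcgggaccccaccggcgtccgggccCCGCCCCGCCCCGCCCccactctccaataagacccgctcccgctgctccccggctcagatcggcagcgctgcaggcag
C1ql2: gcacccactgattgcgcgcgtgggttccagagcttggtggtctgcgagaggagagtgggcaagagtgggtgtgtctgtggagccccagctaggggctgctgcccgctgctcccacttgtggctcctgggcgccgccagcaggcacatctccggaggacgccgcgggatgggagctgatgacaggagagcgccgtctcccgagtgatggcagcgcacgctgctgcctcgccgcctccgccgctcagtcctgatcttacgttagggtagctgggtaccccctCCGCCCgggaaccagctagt
Tdo2: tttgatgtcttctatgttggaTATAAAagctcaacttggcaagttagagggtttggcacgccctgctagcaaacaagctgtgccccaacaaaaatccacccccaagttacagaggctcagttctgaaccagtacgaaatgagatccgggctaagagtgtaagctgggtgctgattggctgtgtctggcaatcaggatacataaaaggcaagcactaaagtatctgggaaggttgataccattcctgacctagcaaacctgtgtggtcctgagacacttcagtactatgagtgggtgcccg

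The Plk5 window held 4 GC boxes, 3 of them in one overlapping run just before the start, at 66.7% GC and 21 CpG. The C1ql2 window held 1 GC box, which lies after the start, at 67.3% GC and 23 CpG. The Tdo2 window held no GC box, 4 CpG and 47.7% GC, with 1 TATA box at base -229 from the start. In all, 8 of the 9 genes matched an entry, with 10 windows because Prox1 and Npnt have more than one start, and Calb1 did not match. GC boxes were present in 7 of these 10 windows and in 35.7% of all 32851 windows. TATA boxes were present in 2 of the 10, those of Tdo2 and of the upstream Prox1 start, against 13.6% of all windows. The E-box CAGATG, searched on either strand, was present in 1 of the 10, the upstream Prox1 start, against 17.2% of all windows. Such matches describe the letters alone.

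Before the comparison, the targeted gene was read in every animal. Ptk2b (chromosome 14, 66153257 to 66281052 in mm10) averaged 273 ± 6.33 FPKM in animals labelled KO and 217 ± 21.0 FPKM in WT animals (SD, n = 2 each), so its level does not bear out the KO label. The log2 difference of 0.34 (interval 0.15 to 0.52) was not called (limma adjusted p = 0.158). A gene-level value cannot show whether an exon or the protein is missing, and directions below are those of the animals as labelled. The summed markers of choroid plexus, meninges and blood stood apart as well. The summed level of 12 choroid plexus markers was 290 and 1240 FPKM in KO1 and KO2, against 4252 and 7514 FPKM in WT1 and WT2. That of 9 meningeal markers was 39.3 and 70.3 FPKM in KO1 and KO2, against 117 and 189 FPKM in WT1 and WT2. That of 5 blood markers was 149 and 158 FPKM in KO1 and KO2, against 287 and 317 FPKM in WT1 and WT2. Single genes weigh heavily in these sums: in WT2, Ttr alone stood at 6325 FPKM and Igf2, of the meningeal list, at 118.5 FPKM. One by one, the groups did not overlap for 12 of 12 choroid plexus, 7 of 9 meningeal and 5 of 5 blood markers. All of these were lower in animals labelled KO, against 30.7% of all genes. No marker of these 3 lists was at 0 in any animal, and the part of these other cells in the results below was not tested.

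None of the 9 granule cell markers passed the test between animals labelled KO and WT animals. The calcium buffer gene Calb1 averaged 17.2% higher in animals labelled KO. Plk5, of the polo-like kinase family, averaged 28.2% lower. These were the members whose groups did not overlap. That is 2 of 9 members, whereas the groups did not overlap for 49.1% of all genes tested. The identity factor Prox1 and the other 6 overlapped between the groups. The limma test, on log2(FPKM + 1) with Benjamini-Hochberg adjustment over 16667 genes, called 0 of the 9 higher and 0 lower at an adjusted p under 0.05, and their adjusted p ran over 0.232 to 0.93. Across all genes it called 9, or 0.0540%, all of them lower. At an unadjusted p under 0.05, 1 member was higher and 0 were lower, against 4.11% of all genes higher and 11.4% lower. The median log2 fold change of the members was -0.03, against -0.02 over all genes tested. Leaving out WT1 put that median at 0.09 and leaving out WT2 put it at -0.16, where the lone WT animal is assumed to vary like the animals labelled KO.

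**Figure D1:**
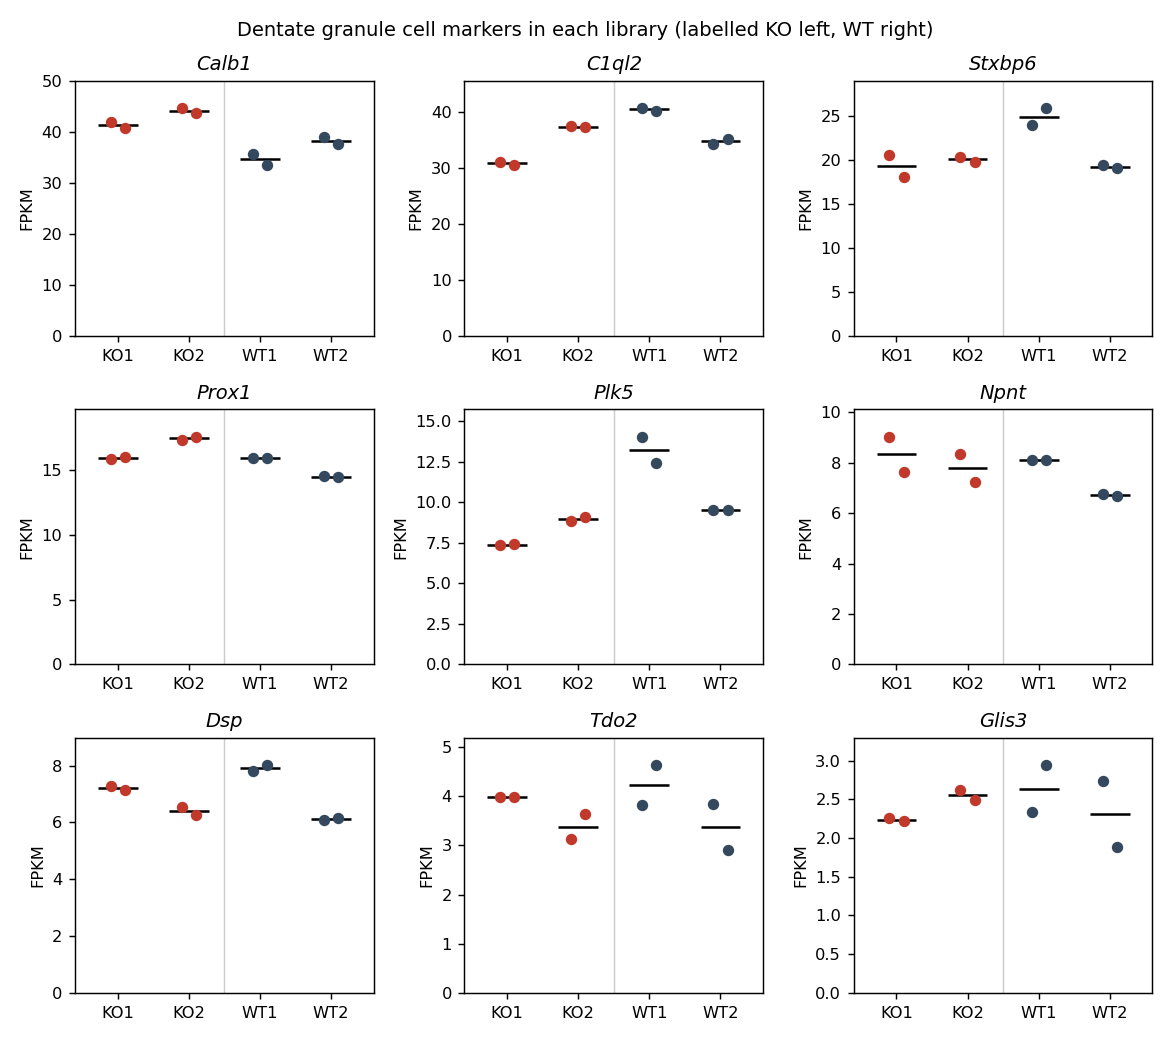
FPKM of the 9 markers in each library, in order of mean level. Points are the 2 technical replicate libraries of an animal (red, labelled KO, and dark, WT) and lines are the animal's mean. The groups are apart only for Calb1 and Plk5. The mean of WT1 lies above that of WT2 in every panel but Calb1. For Tdo2 and Glis3 the first library of WT1 lies below the first of WT2.

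Of the transcription factors, Prox1 (chromosome 1, 190118035 to 190170714) was at 15.8, 16.0, 17.3 and 17.5 FPKM in the libraries of KO1 and KO2, against 15.9, 15.9, 14.5 and 14.5 FPKM in those of WT1 and WT2. KO2 was the highest animal and WT2 the lowest, while KO1 and WT1 lay at the same level, so the groups overlapped. The means were 16.7 ± 1.08 FPKM in animals labelled KO and 15.2 ± 1.00 FPKM in WT animals (SD, n = 2 each), a log2 difference of 0.12 with a 95% interval of -0.06 to 0.31 (limma adjusted p = 0.458). That log2 difference was 0.06 without KO2 and 0.06 without WT2. The exons of Prox1 overlap those of the antisense gene Prox1os, which was listed at 4.54 to 5.56 FPKM, and the labels give no strand setting, so these reads cannot be fully separated. Glis3 (chromosome 19, 28258851 to 28680077), a zinc finger factor related to the Gli family, was at 2.26, 2.21, 2.61 and 2.49 FPKM in the libraries of KO1 and KO2, against 2.34, 2.94, 2.73 and 1.88 FPKM in those of WT1 and WT2. The highest library belonged to WT1 and the lowest to WT2, with all those labelled KO between them, and the log2 difference was -0.03 with an interval of -0.27 to 0.21 (limma adjusted p = 0.901).

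C1ql2 (chromosome 1, 120340582 to 120343174) encodes a secreted C1q-like protein that organises mossy fibre synapses. It was at 31.0, 30.5, 37.4 and 37.2 FPKM in the libraries of KO1 and KO2, against 40.6, 40.2, 34.2 and 35.1 FPKM in those of WT1 and WT2. Both libraries of WT1 were above all others and both libraries of KO1 below all others, while KO2 lay above WT2. The log2 difference was -0.14 with an interval of -0.43 to 0.16 (limma adjusted p = 0.609), and it was -0.0038 without KO1, -0.27 without KO2, -0.03 without WT1 and -0.25 without WT2. Npnt (chromosome 3, 132881745 to 132950291), the matrix protein nephronectin that binds an integrin, was at 9.03, 7.63, 8.35 and 7.25 FPKM in the libraries of KO1 and KO2, against 8.12, 8.10, 6.75 and 6.70 FPKM in those of WT1 and WT2. WT2 was the lowest animal and the other 3 overlapped (log2 difference 0.11, interval -0.14 to 0.36, limma adjusted p = 0.622). Dsp (chromosome 13, 38151294 to 38198577) encodes desmoplakin, which ties intermediate filaments to cell junctions. It was at 7.27, 7.13, 6.54 and 6.25 FPKM in the libraries of KO1 and KO2, against 7.80, 8.01, 6.09 and 6.14 FPKM in those of WT1 and WT2. The WT animals were the highest and the lowest of the 4, with both animals labelled KO between them (log2 difference -0.03, interval -0.36 to 0.29, limma adjusted p = 0.93).

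Stxbp6 (chromosome 12, 44852484 to 45074709) encodes amisyn, a syntaxin-binding protein of vesicle exocytosis. It was at 20.5, 18.1, 20.3 and 19.7 FPKM in the libraries of KO1 and KO2, against 24.0, 25.8, 19.4 and 19.0 FPKM in those of WT1 and WT2. WT1 alone stood out and WT2 lay among the libraries labelled KO. The log2 difference was -0.15 with an interval of -0.46 to 0.16 (limma adjusted p = 0.605), and it was 0.031 without WT1. Calb1 (chromosome 4, 15881264 to 15908064) encodes calbindin, the calcium buffer that mature granule cells hold at high level. It was at 42.1, 40.8, 44.7 and 43.8 FPKM in the libraries of KO1 and KO2, against 35.8, 33.6, 39.1 and 37.7 FPKM in those of WT1 and WT2. All 4 libraries labelled KO lay above all 4 WT libraries. The means were 42.8 ± 2.01 FPKM in animals labelled KO and 36.5 ± 2.60 FPKM in WT animals (SD, n = 2 each), 17.2% higher. The log2 difference was 0.22 (SE 0.06, interval 0.06 to 0.39) and missed the threshold (limma unadjusted p = 0.0181, adjusted p = 0.232).

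Tdo2 (chromosome 3, 81957090 to 81976202) encodes the tryptophan dioxygenase that opens the kynurenine pathway. It was at 3.98, 3.98, 3.13 and 3.63 FPKM in the libraries of KO1 and KO2, against 3.83, 4.63, 3.84 and 2.90 FPKM in those of WT1 and WT2. The WT libraries spanned all of those labelled KO (log2 difference -0.03, interval -0.34 to 0.27, limma adjusted p = 0.921). Plk5 (chromosome 10, 80356459 to 80365489), a member of the polo-like kinase family expressed in brain, was at 7.35, 7.43, 8.83 and 9.08 FPKM in the libraries of KO1 and KO2, against 14.0, 12.4, 9.51 and 9.52 FPKM in those of WT1 and WT2. All libraries labelled KO were below all WT libraries, but KO2 lay close to WT2 and the deposited confidence intervals of their libraries overlapped. The means were 8.17 ± 1.11 FPKM in animals labelled KO and 11.4 ± 2.63 FPKM in WT animals (SD, n = 2 each). The log2 difference of -0.42 (SE 0.17, interval -0.85 to 0.0072) missed the threshold (limma adjusted p = 0.326), and it was -0.20 without WT1 and -0.64 without WT2.

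In all, the animals of the groups did not overlap for 1 member higher in those labelled KO (Calb1) and 1 lower (Plk5). Over all genes tested this held for 18.4% higher and 30.7% lower. For Calb1 and for Plk5 alike, the exact permutation test over the 4 animals (two-sided) reached p = 0.333, the smallest that 2 against 2 animals allow. With the 8 libraries as units and the animal as a random effect, Calb1 passed (limma adjusted p = 0.0379). That fit called 1085 of all 16667 genes. It counts technical libraries as replicates, tied by a single correlation shared by all genes, so its p-values rest partly on the spread between libraries. The means of the groups lay further apart than the animals within either group for 1 of the 9 members, Calb1. The share of all genes for which this held is not given here. Choroid plexus, meningeal and blood sums given above separate the same animals, and their part in the Calb1 and Plk5 values was not tested.

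**Figure D2:**
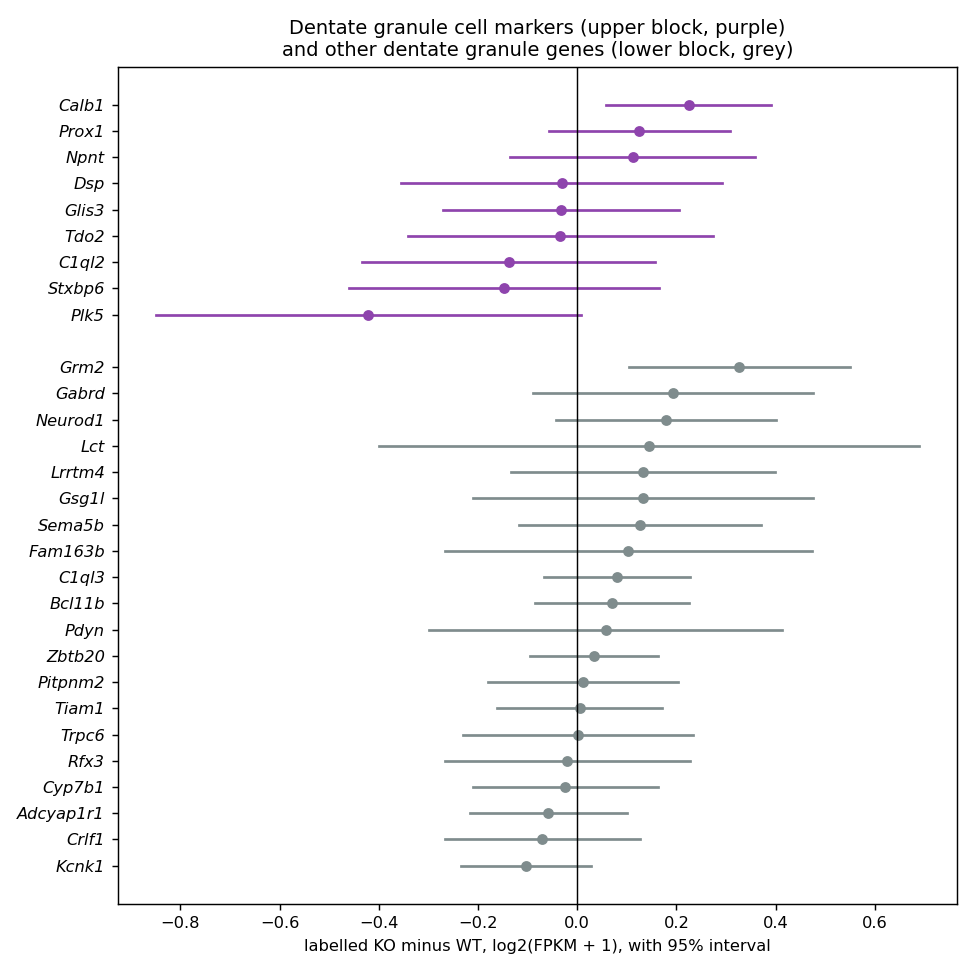
Log2 difference (labelled KO minus WT, on log2(FPKM + 1)) with its 95% interval from limma for the 9 markers (upper block) and 20 other dentate granule genes (lower block). The interval lies wholly above 0 for Calb1 and Grm2 alone, and neither passes after adjustment.

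For most members the WT animals differed more from each other than the groups did. WT1 was above WT2 for 8 of the 9 members, all but Calb1, whereas 49.0% of all genes tested were higher in WT1. The median log2 difference between WT1 and WT2 was 0.24 over the members, against -0.0022 over all genes. It was above 0.2 for 6 of the 9 members, against 4.92% of all genes. The ratio of WT1 to WT2 was highest for Plk5 at 1.39, followed by Stxbp6 at 1.30, Dsp at 1.29 and Tdo2 at 1.25, and it was 0.904 for Calb1. WT1 was the highest of the 4 animals for 6 members and WT2 the lowest for 5, and the shares over all genes are not given here. For 8 of the 9 members the WT animals differed by more on the log2 scale than the group means did, which held for 45.4% of all genes. With 1 animal on each side this difference has no replicate check beyond the technical libraries. A difference between single animals also varies more than a difference between means of 2 animals. KO1 and KO2 differed by more than the group means for Dsp, C1ql2, Tdo2 and Glis3 only, without a share over all genes.

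The deposited confidence limits describe the error of a single library and not the spread between animals. For Dsp, C1ql2, Plk5 and Stxbp6, 4 of the 9 members, both libraries of WT1 had lower limits above the upper limits of both libraries of WT2, against 1.20% of all genes tested. The half-width of these intervals was 3.43% to 4.43% of the level for C1ql2, 6.96% to 10.1% for Plk5 and 4.84% to 8.65% for Stxbp6. It was wider for the low genes, at 18.4% to 25.4% for Tdo2 and 16.7% to 32.6% for Glis3. The share of 1.20% takes in genes down to the minimum of 0.5 FPKM, so it is not matched to the levels of the members. Technical replicates had a median ratio of 1.03, higher over lower, over the 36 pairs of an animal and a member. The ratio was at most 1.45, for Glis3 in WT2, and the deposited intervals of a pair were apart in 1 case, Stxbp6 in KO1. The count of members higher in WT1 was 8 after median-of-ratios scaling and after quantile normalization, and 6 and 8 with the first or the second technical replicate alone.

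**Figure D3:**
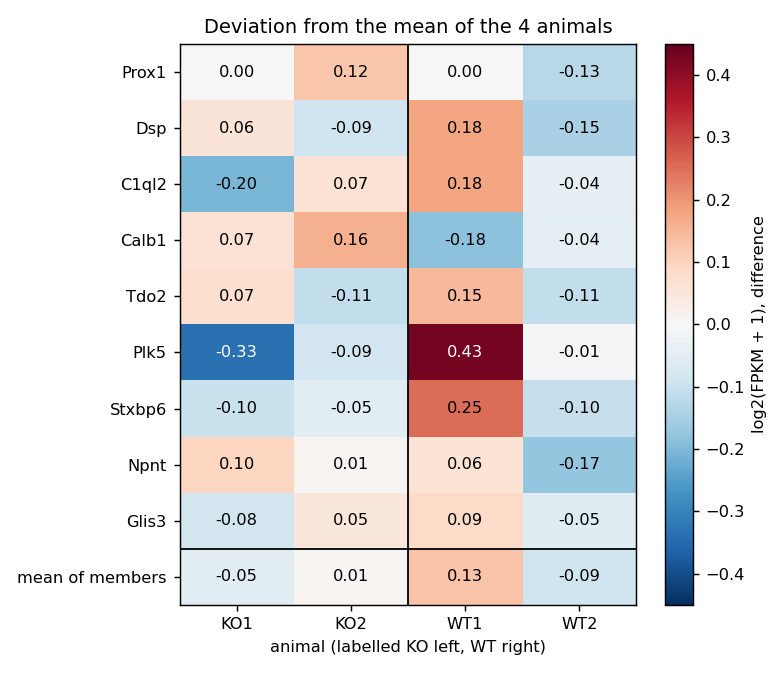
Difference of each animal from the mean of the 4 animals on log2(FPKM + 1), for the 9 markers in rows and their mean in the last row. WT1 is the highest animal in the mean of the members at 0.13 and WT2 the lowest at -0.09, with KO1 at -0.05 and KO2 at 0.01 between them; Calb1 runs the other way in WT1.

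A further 20 genes known for expression in granule cells, some shared with other neurons, were read in the same animals. In the comparison of groups limma called 0 of the 20 higher and 0 lower, with 1 higher and 0 lower at an unadjusted p under 0.05, and their median log2 difference was 0.06. That median was 0.11 without WT1 and -0.06 without WT2. The mean was higher in animals labelled KO for 15 of the 20 genes and for 3 of the 9 members, against 42.0% of all genes. The smallest p belonged to Grm2, the presynaptic glutamate receptor gene of mossy fibres, at 18.6 ± 1.92 FPKM in animals labelled KO and 14.6 ± 0.974 FPKM in WT animals (SD, n = 2 each). Its log2 difference was 0.33 with an interval of 0.10 to 0.55 (limma adjusted p = 0.21), and its libraries labelled KO were all above the WT libraries. Neurod1, a helix-loop-helix factor of granule neuron differentiation, was at 8.43 ± 0.982 FPKM in animals labelled KO and 7.31 ± 0.134 FPKM in WT animals (limma adjusted p = 0.395). Kcnk1, a potassium channel gene, was at 42.6 ± 2.26 FPKM in animals labelled KO and 45.8 ± 0.968 FPKM in WT animals (limma adjusted p = 0.403). Gabrd, the GABA receptor subunit of tonic inhibition, was at 11.0 ± 1.11 FPKM in animals labelled KO and 9.55 ± 1.27 FPKM in WT animals (limma adjusted p = 0.458). C1ql3, the close relative of C1ql2, was at 44.4 ± 3.06 FPKM in animals labelled KO and 42.0 ± 0.588 FPKM in WT animals (limma adjusted p = 0.552). None of these 5 passed.

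Between the WT animals, all 20 of these genes were higher in WT1, with ratios of 1.02 to 1.58 and a median log2 difference of 0.14. WT2 was the lowest of the 4 animals for 16 of them, again without a share over all genes to set beside it. The largest ratios, named after their values were seen, were those of Lct, Pdyn and Fam163b. Lct, the lactase gene, was at 8.94 and 8.99 FPKM in the libraries of WT1 and at 5.68 and 5.66 FPKM in those of WT2, with 7.14 to 9.23 FPKM in the libraries labelled KO. Pdyn, the prodynorphin gene, had a ratio of 1.39, and Fam163b one of 1.36. The count of 20 was also 20 under either other scaling, and 18 and 19 with single technical replicates. KO1 was above KO2 for 3 of the 9 members and 8 of the 20 other genes, against 42.0% of all genes.

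Markers of the other hippocampal neurons did not share the gap between WT1 and WT2 in their medians, though the difference between lists was not tested. Single genes of these lists differed by over 0.2 in either direction, more of them upward. In the pyramidal lists, Wfs1 (CA1, 0.38), Cacng5 (CA2, 0.46) and Rgs14 (CA2, 0.29) were higher in WT1. So were Iyd (0.47), Homer3 (0.26) and Bok (0.24) of CA3, and Npy (0.315) and Gad2 (0.21) of the interneurons. Igfbpl1 (0.61) of the neurogenesis list was also higher. Lower in WT1 were Etv1 (CA1, -0.34), Vip (interneurons, -0.30) and Calb2 (on several lists, -0.27). Of all genes tested, 4.92% were higher in WT1 by over 0.2. WT1 was above WT2 for 4 of 8 CA1 pyramidal genes (median log2 difference 0.02), 4 of 8 CA3 genes (0.01), 5 of 7 CA2 genes (0.02) and 5 of 10 interneuron genes (-0.03). It was above for 5 of 10 tested genes of immature neurons and neurogenesis (median -0.0047) and 2 of 3 tested hilar mossy cell genes (0.02). The list of striatal genes had 5 of 7 higher in WT1 (0.13), that of thalamus 3 of 6 (-0.0052) and that of neocortex 2 of 7 (-0.13). Endothelial and pericyte genes had 2 of 8 higher in WT1 (-0.07). Glial lists lay slightly higher in WT1, with 7 of 8 astrocyte genes (0.07), 8 of 10 oligodendrocyte lineage genes (0.08) and 7 of 8 microglia genes (0.09). All 12 choroid plexus genes (median -0.35), 9 meningeal genes (-0.31) and 5 blood genes (-0.15) were lower in WT1 than in WT2, and their part in the gap of the granule cell genes was not tested. Between KO1 and KO2 the CA1 list stood higher in KO1 (median 0.23) and the CA3 list lower (-0.13), with the granule cell markers at -0.09. Lists beyond these neurons differed as well, with neocortex at 0.24, microglia at 0.15 and choroid plexus at -1.23, against -0.02 over all genes.

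Set against the other cell types in the comparison of groups, the granule cell markers lay close to the median of all genes. The median log2 difference between animals labelled KO and WT animals was 0.06 for CA1, -0.06 for CA2, 0.14 for CA3, 0.01 for interneuron, 0.04 for neurogenesis and -0.24 for mossy cell genes, with 0 called in each list by limma. It was -0.00013 for astrocyte, 0.08 for oligodendrocyte lineage, 0.07 for microglia and -0.06 for endothelial and pericyte genes, again with 0 called. For lists of other brain regions it was 0.14 for neocortex and 0.01 for thalamus with 0 called, and -0.10 for striatum with 1 called lower. It was -2.38 for choroid plexus with 0 called, -0.63 for meninges with 0 called and -0.95 for blood with 2 called lower. The unadjusted counts in these 3 lists were 12 of 12, 6 of 9 and 5 of 5, all lower.

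**Figure D4:**
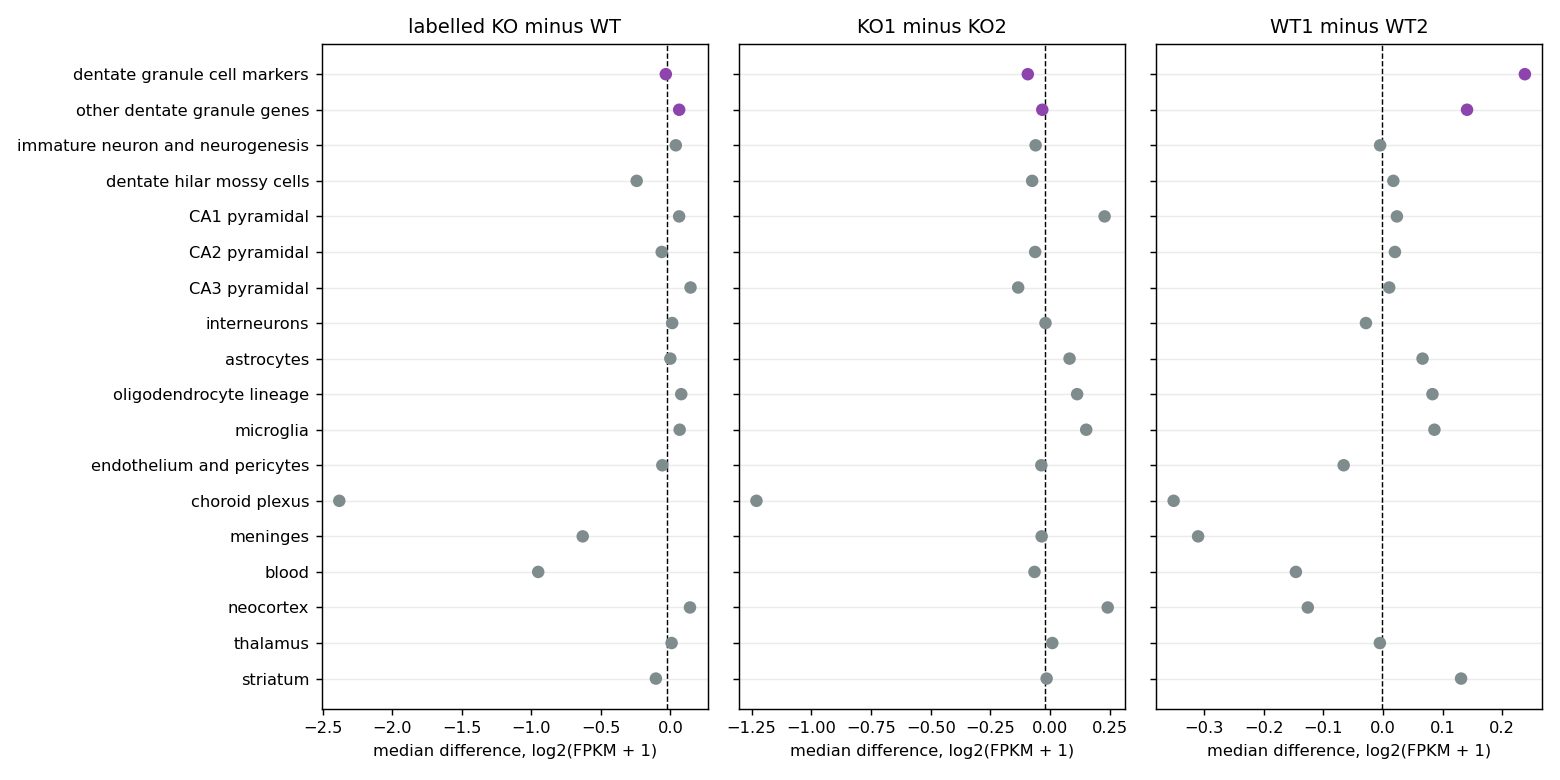
Median difference on log2(FPKM + 1) of each marker list for animals labelled KO minus WT animals, KO1 minus KO2 and WT1 minus WT2, with the dashed line at the median of all genes tested; the panels have different scales. The granule cell lists (purple) lie near the line on the left and at 0.24 and 0.14 on the right, while choroid plexus lies at -2.38 on the left.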

How the data were processed

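Total RNA was isolated with Trizol, per the labels' protocols. The authors deposited 1 table per library with FPKM and their lower and upper confidence limits, per the file headers. Named without a role, per the submitters' processing notes, are mm10, Bowtie (version 1) and HISAT. Not given in the sources used here are the program behind the FPKM, any scaling and the strand setting. Read totals were not among the values used, so depth is known only through the deposited limits, which cover the error of 1 library.

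Repeated identifiers (53 rows) were summed, and 12 values whose status was not OK counted as missing, none of them of a member. The mean of both technical replicates stood for an animal, and 16667 genes reached the minimum of 0.5 FPKM in 2 animals. The test was limma 3.58.1 with trended variance (R 4.3.3), fitted to log2(FPKM + 1) as labelled KO minus WT. P-values were adjusted by Benjamini-Hochberg, and the threshold was 0.05. The pseudocount understates changes of low genes. Exact tests used scipy 1.17.1 and figures matplotlib 3.10.9. Coordinates of the members are those of the tables, counted from 1, and equal those of GENCODE M21.

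Members and lists were chosen with earlier results of these data known. All members are named. Of the 20 other granule cell genes, the 5 with the smallest p are named as not passing, and the choroid plexus and blood lists are given as summed FPKM. Of 13 genes listed for immature neurons and neurogenesis, 12 were found in the tables. Some genes, such as Calb2, are on more than 1 list. Alternatives were other scalings, minimums and pseudocount, single technical replicates, 8 libraries with the animal as a random effect, a block for the animal number, another threshold, and leaving out each animal. All counts of genes higher in WT1 or with limits above those of WT2, and their values under other scalings and single replicates, were added after the data were seen.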

Additional observations from a re-analysis of the deposited data

How the results depend on the processing

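Of the 126 recomputed member differences (9 members, 14 alternatives), 114 kept their direction and 1 passed the threshold. Some alternatives could change only the p-values, so their direction was kept by construction. These were no filter, a minimum of 1 FPKM, the replicate block and a threshold of 0.1. The difference that passed was that of Calb1 with 8 libraries and the animal as a random effect, a fit that counts technical libraries as replicates. In that fit 1 member, 1 other granule cell gene, 31 genes of other cell types and 1085 of all 16667 genes were called. Ptk2b passed there too (log2 difference 0.33, limma adjusted p = 0.00634). Ptk2b did not pass in the test of 4 animals (adjusted p = 0.158) or with the replicate block (0.0842). Prox1, C1ql2, Calb1 and Plk5 kept their direction in all 14, with values over 0.06 to 0.19, -0.27 to -0.0038, 0.15 to 0.30 and -0.64 to -0.20 in that order when 1 animal was left out. After quantile normalization the log2 difference turned to 0.034 for Dsp, 0.061 for Tdo2 and 0.066 for Glis3, and with the second technical replicate alone to 0.035 for Tdo2. With 1 animal left out, it ran over -0.19 to 0.13 for Dsp, -0.16 to 0.095 for Tdo2, -0.33 to 0.031 for Stxbp6, -0.0074 to 0.23 for Npnt and -0.10 to 0.036 for Glis3. The median of the members ran over -0.16 to 0.095 and that of the 20 other granule cell genes over -0.06 to 0.11, and the calls over 0 to 224 for all genes and 0 to 19 for other cell types.

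The 9 calls over all genes became 0 with no filter on low values, 14 with a pseudocount of 0.1, 19 and 35 with the first or second technical replicate alone, and 175 at a threshold of 0.1. The 3 calls in lists of other cell types became 5 after median-of-ratios scaling, 0 with no filter, 5 and 7 with single technical replicates and 10 at a threshold of 0.1. With the replicate block, 184 genes were called, 19 of them in lists of other cell types, and 0 members. The deviations of same-numbered animals correlated at 0.107 over genes, with only 2 pairs. The labels do not say whether such animals share more than a number. The causes were not tested. With 2 animals a group, the intervals leave room for differences of the size seen between WT1 and WT2.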
